A study of Mus musculus with 16 samples.

Results

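The genes described here carry out or control glucose production, the entry of glucose carbon into glycolysis, and glucose transport in mouse liver and white fat. They are 9 of the 22322 genes in the deposited tables, taken by symbol from a set proposed with earlier results of these data known: Pck1, G6pc, Fbp1, Pcx, Gckr, Pklr, Slc2a2, Slc2a4 and Ppargc1a. The study gave diet-induced obese (DIO) mice halofuginone, a derivative of the plant alkaloid febrifugine that inhibits prolyl-tRNA synthetase, at 100 μg/kg into the peritoneum every 2 days, or vehicle on that schedule, and took tissue after 8 weeks. RNA sequencing covered 16 libraries: liver from vehicle mice (labelled HFD, n = 5) and halofuginone mice (labelled H100, n = 5), and white adipose tissue from vehicle (n = 3) and halofuginone mice (n = 3). All groups come from diet-induced obese mice, and no lean group enters any comparison. Body weights at sampling were not used here. Strain, sex, age, feeding state at sampling and the fat depot are not given in the sources used here. The labels do not say that replicates came from separate animals, and p-values measure only the spread between these libraries.

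In gluconeogenesis, pyruvate is carboxylated in the mitochondrion, turned into phosphoenolpyruvate and carried back up the glycolytic chain to free glucose, which hepatocytes release during fasting. Glucagon and glucocorticoids raise transcription of its enzymes, partly through the coactivator encoded by Ppargc1a, and insulin lowers it. Hepatocytes take up and release glucose through the insulin-independent transporter encoded by Slc2a2, whereas adipocytes import it through the insulin-regulated transporter encoded by Slc2a4. White fat uses the early steps of the pathway to make glycerol phosphate for triglyceride rather than glucose.

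Liver libraries totalled between 20309956 and 31980683 counts each, and those of fat between 17070614 and 21387799. On the first principal component of liver (60.6% of the variance), vehicle libraries lay between -29.6 and -22.7 and halofuginone libraries 2 to 5 between 24.9 and 49.2, but halofuginone library 1 lay beside the vehicle libraries at -20.7. The called members and the list counts of liver are therefore also given without it. The tissue labels matched their markers: Alb was at 26739 to 98802 CPM in every liver library and at 0.75 to 4.59 CPM in fat, while Adipoq was at 990.8 to 2543 CPM in every fat library and at no more than 0.0396 CPM in liver. CPM here means counts per 1000000, with the library size scaled by TMM, and a change is called at an adjusted p under 0.05 by edgeR's quasi-likelihood test over all genes of a tissue.

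Compared per gene length, the members of vehicle liver ranged from among the abundant transcripts to almost none. Fbp1 (605 ± 99.7 FPKM, SD, n = 5) and Pck1 (577 ± 86.6) were the most abundant and overlapped between libraries. Pcx followed at 159 ± 10.7 FPKM, apart from its neighbours on either side. Pklr (57.1 ± 17.9), Slc2a2 (52.0 ± 9.38) and G6pc (48.2 ± 11.7) overlapped in that order, and Gckr lay below G6pc at 31.6 ± 4.04 FPKM. Ppargc1a stood at 1.1 ± 0.293 FPKM and Slc2a4 at 0.108 ± 0.0719, each apart from the gene above it.

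In liver, 2 of the 8 members that could be tested fell with halofuginone, Pcx and Ppargc1a, and none rose. Across all 12311 liver genes tested, 23.2% were called (10.5% lower and 12.7% higher), so a count of 2 in 8 is near the background share. At an unadjusted p under 0.05 the count was also 2, against 39.1% of all genes, and DESeq2 called the same 2, against 26.0%. The genes for the committed and final steps of glucose output, Pck1, Fbp1 and G6pc, did not pass the test, and neither did Gckr, Pklr or Slc2a2. Slc2a4 had too few counts to be tested.

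**Figure D1:**
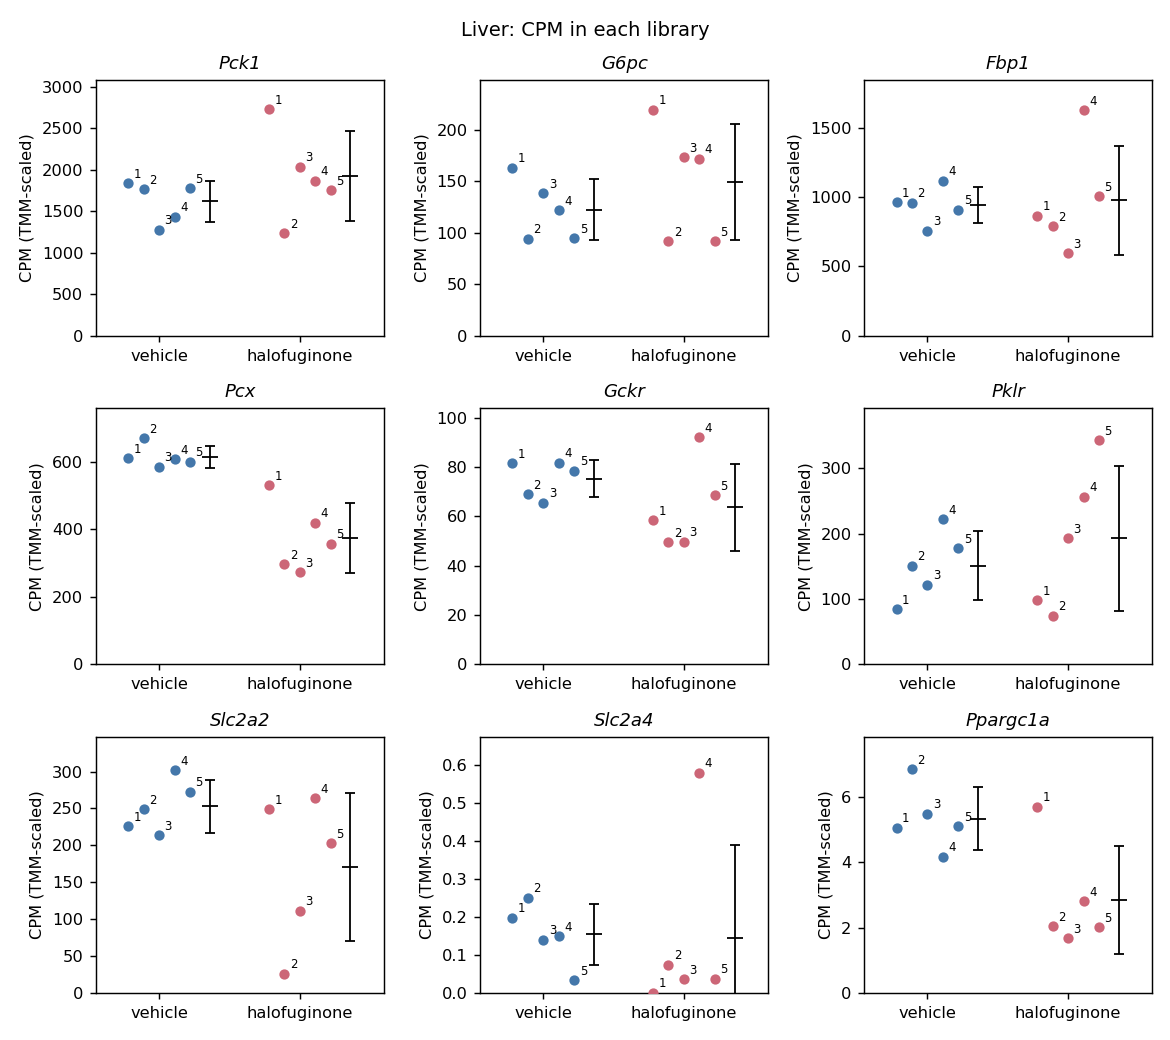
CPM (TMM-scaled, linear axis from 0) of the 9 genes in liver, with 1 numbered point per library, 5 vehicle libraries in blue and 5 halofuginone libraries in red; the bar beside each group is the mean with its SD. All 5 treated libraries lie below all vehicle libraries for Pcx, and 4 of 5 do for Ppargc1a, with library 1 inside the vehicle range.

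Pcx encodes pyruvate carboxylase, the mitochondrial enzyme that makes oxaloacetate from pyruvate and opens gluconeogenesis. Vehicle libraries 1 to 5 held 611, 670.2, 586, 608 and 601 CPM, and halofuginone libraries 1 to 5 held 530.1, 297, 273, 420.2 and 358 CPM. Every treated library was below every vehicle library, with library 1 the closest to them, and groups that do not overlap in this direction made up 6.55% of all genes tested. The mean fell from 615 ± 32.2 to 376 ± 104 CPM (SD, n = 5 and 5), a log2 fold change of -0.71 (SE 0.18, adjusted p = 0.0186, edgeR). Without halofuginone library 1 the log2 fold change was -0.89 (SE 0.14, adjusted p = 5.8e-04, edgeR). The call was lost when all 4 groups shared 1 estimate of the spread (log2 fold change -0.71, adjusted p = 0.0667, edgeR).

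Ppargc1a encodes the transcriptional coactivator that links fasting signals to gluconeogenic and mitochondrial genes. It was sparse, with 112 to 156 counts in vehicle libraries and 47 to 115 in treated ones. Vehicle libraries 1 to 5 held 5.07, 6.86, 5.50, 4.18 and 5.11 CPM, and halofuginone libraries 1 to 5 held 5.71, 2.05, 1.68, 2.82 and 2.01 CPM. Treated libraries 2 to 5 were below every vehicle library, and library 1 was within the vehicle range, so the groups overlapped. The mean fell from 5.35 ± 0.976 to 2.85 ± 1.65 CPM (log2 fold change -0.92, SE 0.31, adjusted p = 0.0492, edgeR). The log2 fold change without library 1 was -1.34 (SE 0.19, adjusted p = 3.3e-04, edgeR), where 42.8% of all genes tested were called. The call passed narrowly: it was lost under 12 of 17 alternatives, over which the adjusted p ranged from 3.3e-04 to 0.115.

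Pck1 encodes cytosolic phosphoenolpyruvate carboxykinase, which turns oxaloacetate into phosphoenolpyruvate. Its level was 1837, 1766, 1281, 1438 and 1779 CPM in vehicle libraries 1 to 5 and 2731, 1235, 2038, 1869.8 and 1753 CPM in halofuginone libraries 1 to 5. Treated libraries 1, 3 and 4 were above the highest vehicle library and library 2 was below the lowest, so the treated group spread to both sides. The log2 fold change was 0.25 (SE 0.21, adjusted p = 0.398, edgeR) and was 0.07 (SE 0.18) without halofuginone library 1, which was the highest of all.

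G6pc encodes the catalytic subunit of the phosphatase that frees glucose from glucose phosphate, the last step of glucose output. Vehicle livers 1 to 5 had 163, 94.5, 139, 122 and 94.8 CPM, and treated livers 1 to 5 had 219.7, 91.9, 173, 172 and 91.8 CPM. The treated libraries split, with 1, 3 and 4 above the vehicle range and 2 and 5 just below it. The log2 fold change of 0.29 (SE 0.26, adjusted p = 0.435, edgeR) became 0.09 (SE 0.25) without library 1.

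Fbp1 encodes the fructose bisphosphatase of liver, which opposes phosphofructokinase. It stood at 963, 959, 757, 1119 and 909 CPM in vehicle libraries 1 to 5 and at 866, 791, 596, 1624 and 1007 CPM in treated libraries 1 to 5. Library 3 of the treated group was below and library 4 above the vehicle range, with the other 3 inside it. Its log2 fold change was 0.05 (SE 0.24, adjusted p = 0.889, edgeR), and the sign turned without treated library 4 (-0.22, SE 0.18).

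Gckr encodes a hepatocyte protein that restrains the phosphorylation of incoming glucose when glucose is low. Vehicle libraries 1 to 5 had 81.7, 69.0, 65.5, 81.7 and 78.6 CPM, against 58.6, 49.7, 49.8, 92.1 and 68.6 CPM in treated libraries 1 to 5. Libraries 1, 2 and 3 of the treated group were below all vehicle libraries, while library 4 was the highest of the 10. The log2 fold change was -0.24 (SE 0.17, adjusted p = 0.305, edgeR). Leaving out library 4 gave -0.42 (SE 0.13, adjusted p = 0.0476, edgeR), past the threshold.

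Pklr encodes the pyruvate kinase of liver, the last step of glycolysis and a target of glucose signalling. It varied widely already among vehicle libraries 1 to 5 (84.0, 151, 122, 222 and 177 CPM), and treated libraries 1 to 5 held 98.3, 74.5, 192, 256 and 343 CPM. Library 2 of the treated group was the lowest of the 10 and library 5 the highest. The log2 fold change of 0.35 (SE 0.39, adjusted p = 0.537, edgeR) was smaller than its own error.

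Slc2a2 encodes the main glucose transporter of hepatocytes. Its levels were 226, 249, 214, 302 and 273 CPM in vehicle libraries 1 to 5 and 249, 25.8, 112, 264 and 203 CPM in treated libraries 1 to 5. Treated library 2 lay far below the rest and library 3 next. Library 5 was also below every vehicle library, making 3 of 5, while libraries 1 and 4 were within the vehicle range. With a log2 fold change of -0.57 (SE 0.45, adjusted p = 0.375, edgeR), the difference was within the spread of the treated libraries. Slc2a4, the insulin-regulated transporter of muscle and fat, had 1 to 5 counts in vehicle livers and 0 to 15 in treated ones, at most 0.579 CPM. In 2 vehicle and 4 treated libraries it was at or under 3 counts, the limit that a count of 0 allows.

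The treated livers differed more among themselves than the vehicle livers for all 8 tested members, a difference that was not tested. A wider spread was not particular to these genes. On the first principal component over all liver genes tested, treated libraries ran from -20.7 to 49.2 and vehicle libraries from -29.6 to -22.7. The share of all genes with a wider treated spread was not computed. The SD was 27.6% of the mean for Pcx and 58.9% for Slc2a2 in treated libraries, the lowest and highest of the 8, and 5.23% for Pcx to 34.8% for Pklr in vehicle libraries. Some markers of hepatocytes differed as well. The summed level of the 8 hepatocyte markers was 129370 to 143510 CPM in vehicle livers and 52757 to 122030 CPM in treated ones. Alb made up most of this sum and was itself not called (adjusted p = 0.0742, edgeR). By edgeR's test 1 of the 8 rose (Tat, log2 fold change 1.66) and 1 fell (Ttr, -1.17), near the 23.2% called over all liver genes. By DESeq2, and without treated library 1, 1 rose and 4 fell, where 26.0% and 42.8% of all genes were called. Of the 8 pericentral markers, which mark hepatocytes around the central vein, 5 fell (Glul, Oat, Slc1a2, Rgn and Cyp2c29) and none rose. Their sum was 15293 to 19004 CPM in vehicle and 3765 to 15681 CPM in treated livers. Cyp2e1, which is also among the hepatocyte markers, made up most of this sum and was not called (adjusted p = 0.0915, edgeR). Over all liver genes 10.5% were called lower and 12.7% higher. The 8 periportal markers, Pck1 among them, had no call, with sums of 4869 to 7052 and 4404 to 7250 CPM; at an unadjusted p under 0.05 the count was also 0, and by DESeq2 0. Of 7 markers of stellate cells and fibroblasts 4 fell, with sums of 255 to 345 CPM in vehicle and 171 to 280 CPM in treated livers. Dcn made up most of these sums and was not called (adjusted p = 0.123, edgeR). Of 6 endothelial markers 2 fell and 1 rose. Markers called lower without treated library 1 were 7 pericentral, 1 periportal, 5 stellate or fibroblast and 3 endothelial, and none was higher. That fit called 21.6% of all genes lower. The part of these markers in the results above was not tested, and in tissue RNA fewer cells of a type and less RNA per cell cannot be told apart.

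The promoters of the genes that the liver results turn on, Pcx and Ppargc1a, are shown with those of the rate-setting genes Pck1 and G6pc, whose hormone-responsive elements are well studied. RefSeq's table for GRCm38.p6 held promoters of 8 of the 9 members, 10 in all, and each sequence gives the 250 bases before an annotated start, 5′ to 3′ on the strand of the gene. The authors' build was mm39, so these coordinates serve the sequences only. Capitals mark matches on either strand to 5 motifs. They are the half-site of the cAMP response element, which reads TGACG, the core of the insulin response element, which reads CAAAACA, the TATA box, searched as TATAAA, the CCAAT box, and the E-box, which was searched for in its form CACGTG. No match shown overlaps another. The lines give Pcx at chr19:4510222-4510471 (plus strand, 1 of 2 annotated starts), Ppargc1a at chr5:51567726-51567975 (minus strand), Pck1 at chr2:173152823-173153072 (plus strand) and G6pc at chr11:101367466-101367715 (plus strand).
Pcx: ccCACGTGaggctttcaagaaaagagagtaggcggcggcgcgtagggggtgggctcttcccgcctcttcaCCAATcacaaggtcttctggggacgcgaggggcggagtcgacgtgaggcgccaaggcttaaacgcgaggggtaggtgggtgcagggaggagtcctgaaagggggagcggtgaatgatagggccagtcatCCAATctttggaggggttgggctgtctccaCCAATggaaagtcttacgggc
Ppargc1a: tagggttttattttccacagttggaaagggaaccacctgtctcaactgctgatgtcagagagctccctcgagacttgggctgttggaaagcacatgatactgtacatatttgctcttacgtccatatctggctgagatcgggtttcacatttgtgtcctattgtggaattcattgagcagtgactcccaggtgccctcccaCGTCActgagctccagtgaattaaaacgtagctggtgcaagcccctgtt
Pck1: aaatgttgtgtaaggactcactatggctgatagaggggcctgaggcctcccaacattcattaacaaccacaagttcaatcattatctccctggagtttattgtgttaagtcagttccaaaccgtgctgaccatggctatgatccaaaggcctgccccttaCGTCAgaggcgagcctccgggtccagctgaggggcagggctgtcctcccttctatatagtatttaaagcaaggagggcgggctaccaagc
G6pc: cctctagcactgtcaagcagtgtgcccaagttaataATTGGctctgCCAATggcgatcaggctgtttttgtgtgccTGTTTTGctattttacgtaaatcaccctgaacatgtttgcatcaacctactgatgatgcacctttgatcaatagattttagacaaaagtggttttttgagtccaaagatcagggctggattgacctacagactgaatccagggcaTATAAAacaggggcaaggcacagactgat
The cAMP half-site was in 2 of the 10 member promoters, at 90 to 86 bases before the start of Pck1 and 49 to 45 before that of Ppargc1a. It was in 17.8% of the 32851 promoters counted. These leave out a chromosome of the table, and the shares of all promoters below are over the same 32851. The insulin response core was in G6pc (174 to 168 bases before the start) and in Gckr (83 to 77), and in 5.56% of all promoters. G6pc had a TATA box at 29 to 24 bases, as did 12.4% of all promoters at any place. The Pcx promoter shown held 3 CCAAT boxes and 1 E-box, motifs found at least once in 33.9% and 6.02% of all promoters. TGATGNAAT, bound by C/EBP and ATF proteins, was in none of the 10 and in 0.816% of all. A match is a description of these letters and not a binding site.

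Around the 9 members, lists of other genes of glucose metabolism were counted in liver, 110 genes of which 101 were tested, with 8 called higher and 21 lower, against 12.7% higher and 10.5% lower over all liver genes. The median log2 fold change over all liver genes was 0.02. Without treated library 1 the counts over the lists were 9 higher and 36 lower, in a fit that called 42.8% of all genes. By list, the counts without it were 2 higher and 6 lower for other gluconeogenesis, 1 and 12 for glycolysis, 0 and 5 for pyruvate dehydrogenase, 2 and 1 for transporters, 2 and 5 for glycogen, and 2 and 7 for regulators. Scaling by library size alone shifted the median of all genes to 0.17 and the share of calls that were higher from 54.7% to 76.9%.

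**Figure D2:**
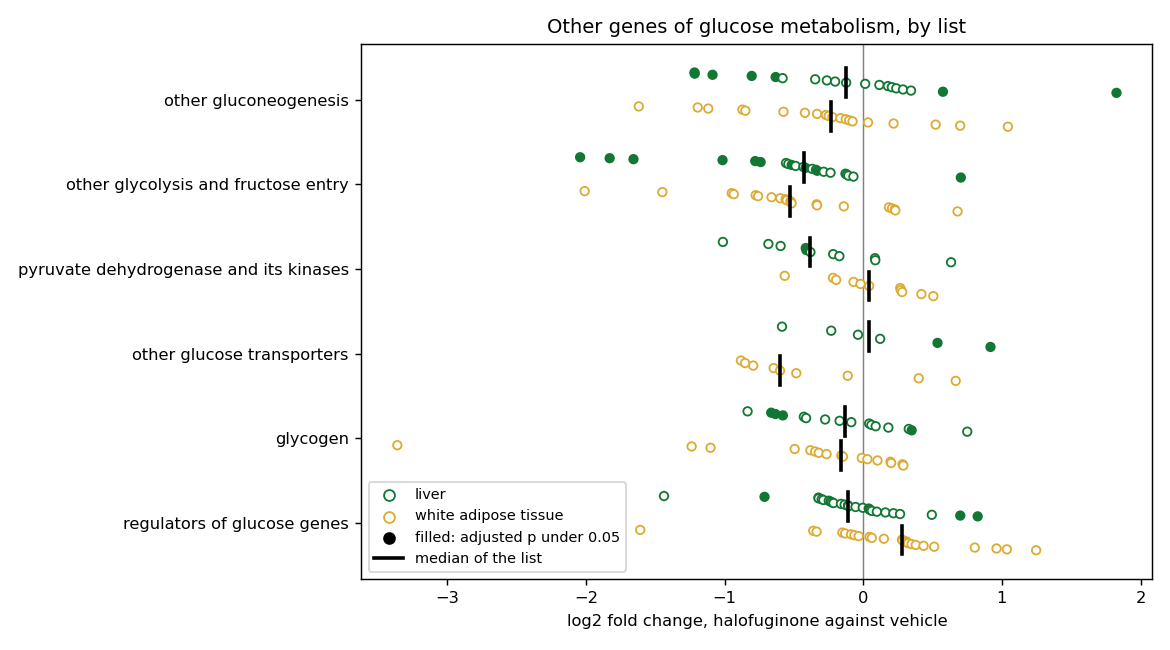
Log2 fold changes of halofuginone against vehicle for the genes of 6 lists outside the 9 members, with 1 point per gene, liver in green and fat in yellow, filled where the adjusted p was under 0.05, and a black bar at each list's median. The glycolysis list lies mostly left of 0 in both tissues, with medians of -0.42 in liver and -0.53 in fat; no point of fat is filled.

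Glycolysis and fructose entry was the list with the most calls in liver: 9 of 22 tested genes fell and 1 rose, and 21 of 22 had a negative sign (median -0.42). Over all liver genes 10.5% were called lower, 12.7% higher, and 48.3% had a negative sign. With library size alone 7 genes of the list fell and 17 were negative. Pfkfb3, which makes the activator of phosphofructokinase, fell from 41.8 ± 32.1 to 10.2 ± 2.86 CPM (log2 fold change -2.04, SE 0.47), with overlap and with vehicle libraries that ranged from 13.5 to 88.2 CPM. Pkm, the pyruvate kinase of most other tissues, fell by 0.78 and Pgk1, phosphoglycerate kinase, by 0.52 on the log2 scale, each without overlap. Others that fell were Hk1, Pfkl, Pfkfb1, Aldoc and Pgam1, and the 1 that rose was Eno3 (0.70), an enolase known from muscle, at 1.96 and 3.18 CPM.

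Among 19 other genes of gluconeogenesis and its shuttles, 5 fell and 2 rose (median -0.12), with 23.2% of all liver genes called. With library size alone the median was 0.01 and the counts of calls were also 5 and 2. Pck2, the mitochondrial form of phosphoenolpyruvate carboxykinase and a known target of the amino acid stress factor ATF4, had 3.17, 2.35, 2.89, 3.47 and 3.24 CPM in vehicle libraries 1 to 5. Treated libraries 1 to 5 had 3.92, 10.4, 11.8, 13.0 and 14.7 CPM, all above the vehicle libraries, with library 1 close to them. Its log2 fold change was 1.83 (SE 0.29, adjusted p = 0.0044, edgeR), the largest rise in the 6 lists, while its cytosolic counterpart Pck1 did not pass the test. Mpc1, a subunit of the carrier that brings pyruvate to pyruvate carboxylase, fell from 235 ± 15.5 to 134 ± 35.1 CPM (log2 fold change -0.80, SE 0.17). Slc25a10, the mitochondrial dicarboxylate carrier, fell by 1.22 and Gpd1, which interconverts glycerol phosphate and a triose phosphate, by 1.09. The other calls were Mdh1 and Gk, lower, and G6pc3, the ubiquitous relative of G6pc, higher (0.57).

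Of 11 genes of the pyruvate dehydrogenase complex and its kinases, 2 fell and none rose (median -0.38), with 23.2% of all liver genes called. Pdha1, a catalytic subunit, fell by 0.41 and Pdhx, a structural subunit, by 0.42, where treated library 1 (29.4 CPM) was inside the vehicle range. With library size alone neither was called. By DESeq2, as without treated library 1, 5 fell, where 26.0% and 42.8% of all genes were called. Of 6 other glucose transporters tested, 2 rose and none fell (median 0.04), against 12.7% higher over all liver genes. Slc2a1, the transporter of most dividing and barrier cells, rose from 7.19 ± 0.679 to 10.4 ± 1.23 CPM (log2 fold change 0.54, SE 0.11) without overlap, and Slc2a5, the fructose transporter, rose from 4.36 ± 1.40 to 8.26 ± 1.71 CPM (0.92, SE 0.23). Both are members of the family of Slc2a2, which did not pass the test.

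Of 16 glycogen genes, 3 fell and 1 rose (median -0.13, and 0.03 with library size alone), with 23.2% of all liver genes called. The branching enzyme Gbe1 fell by 0.66 and the laforin gene Epm2a by 0.58, and Phka1, a subunit of phosphorylase kinase, rose by 0.35, a call that did not pass with DESeq2 size factors. Of 27 regulators, against the same 23.2%, 2 rose and 2 fell (median -0.11, and 0.04 with library size alone, where 3 rose and 1 fell). Crtc1, a coactivator of CREB, rose by 0.70 and Mlx, the partner of the glucose-sensing factor ChREBP, by 0.83, and treated library 1 was inside the vehicle range for both. Hnf4a, a hepatocyte factor that works with the product of Ppargc1a, fell from 895 ± 141 to 546 ± 142 CPM (log2 fold change -0.71, SE 0.20), and Cebpb fell by 0.32.

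**Figure D3:**
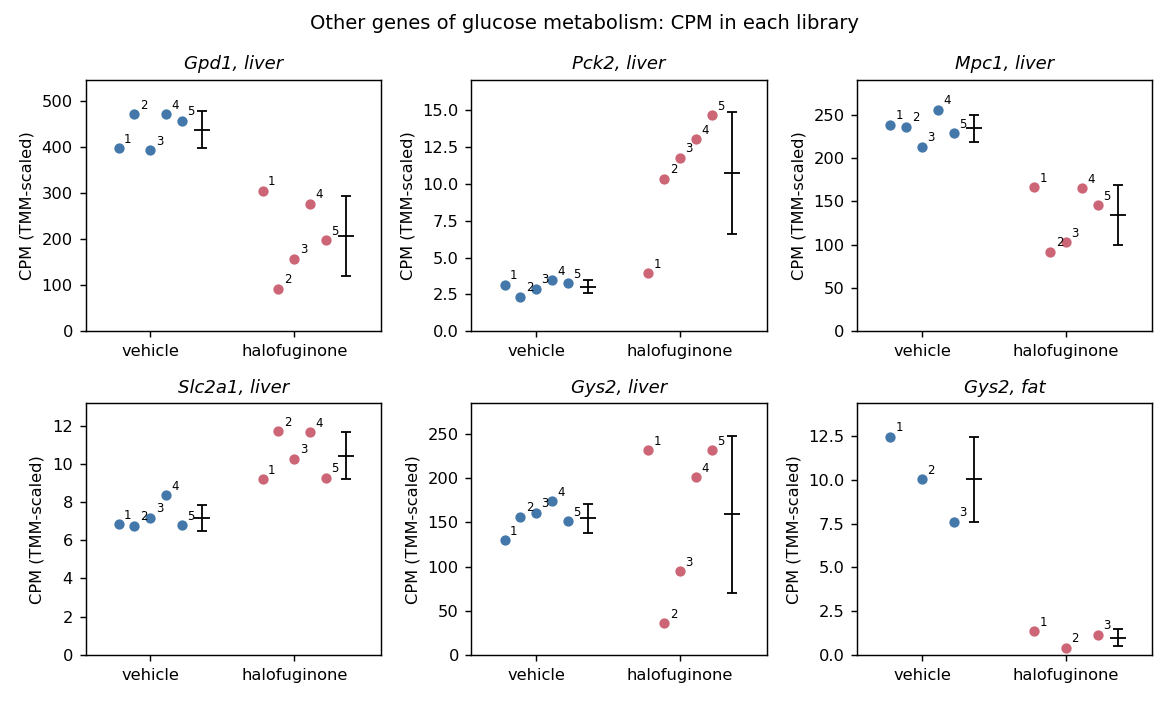
CPM (TMM-scaled, linear axis from 0) of 5 genes from the lists, with 1 numbered point per library and the mean with its SD beside each group; Gys2 is shown in both tissues. Gpd1 and Mpc1 are lower and Pck2 and Slc2a1 higher in every treated liver, and Gys2 is lower in every treated fat library but spread to both sides in liver.

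White adipose tissue had another order of members. In vehicle fat, Pck1 (329.9 ± 171 FPKM, SD, n = 3) and Pcx (146 ± 57.0) led and overlapped, Slc2a4 followed at 36.8 ± 15.8, and the other 6 were at 2.72 FPKM or less. CPM was scaled within each tissue here, and levels of the members are not compared across tissues. G6pc reached at most 0.721 CPM and Gckr at most 0.0930 CPM in fat, and neither could be tested.

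In fat, 0 of the 7 tested members were called, as were 0 of all 14030 genes tested (0.0%). At an unadjusted p under 0.05 there were also 0 members, against 13.4% of all genes, and DESeq2 called 0 members and 655 genes (4.39%). With 3 libraries a group, a p that misses the threshold does not show that levels were alike.

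**Figure D4:**
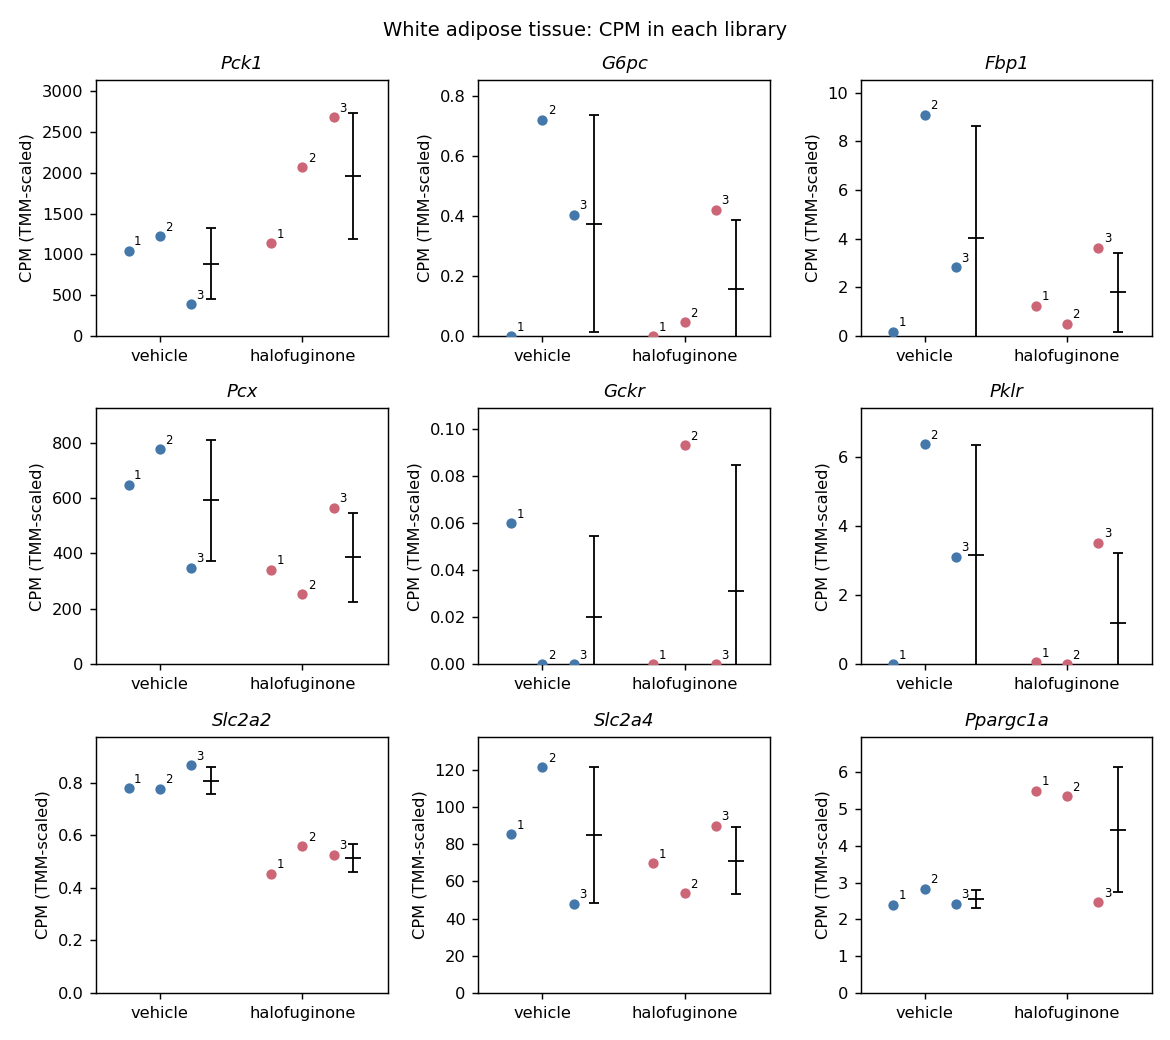
CPM (TMM-scaled, linear axis from 0) of the 9 genes in white adipose tissue, with 1 numbered point per library, 3 vehicle libraries in blue and 3 halofuginone libraries in red, and the mean with its SD beside each group. Groups overlap for every gene but Slc2a2, which is below 1 CPM throughout, and vehicle library 3 is the lowest vehicle library for Pck1, Pcx and Slc2a4.

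Pck1, which in adipocytes feeds glycerol phosphate synthesis, had 1048, 1223 and 391 CPM in vehicle libraries 1 to 3 and 1141, 2069.8 and 2682 CPM in treated libraries 1 to 3. Treated libraries 2 and 3 were above all vehicle libraries and library 1 was inside their range. The log2 fold change was 1.15 (SE 0.48, adjusted p = 0.374, edgeR), and 0.79 (SE 0.36) without vehicle library 3. Pcx had 649, 776 and 349 CPM in vehicle and 341, 253 and 565 CPM in treated fat, with 2 treated libraries below the vehicle range and 1 within it (log2 fold change -0.61, SE 0.39, adjusted p = 0.554, edgeR). Slc2a4 had 85.3, 122 and 48.0 CPM in vehicle and 69.9, 53.6 and 90.0 CPM in treated fat, all treated libraries being inside the vehicle range (-0.26, SE 0.36, adjusted p = 0.807, edgeR). In vehicle library 3 the summed level of the 8 adipocyte markers was 12011 CPM, against 20191 to 24685 CPM in the other 5 fat libraries, and the part of this in the 3 results was not tested.

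Ppargc1a had 2.40, 2.83 and 2.42 CPM in vehicle and 5.49, 5.34 and 2.47 CPM in treated fat. Treated libraries 1 and 2 were above the vehicle libraries and library 3 among them, the opposite side from liver (log2 fold change 0.80, SE 0.39, adjusted p = 0.427, edgeR). Ucp1, the brown fat uncoupling protein and a gene that the product of Ppargc1a is known to coactivate, was at 45.4 CPM in treated library 1 and at 0.0555 to 0.635 CPM in the other 5. In treated library 2, where Ppargc1a was at 5.34 CPM, Ucp1 was at 0.465 CPM. The brown fat markers Cidea (30.7 CPM), Elovl3 (9.68) and Cox8b (6.17) were also highest in treated library 1, but Dio2 was not. The part of brown fat markers in the Ppargc1a values was not tested. Slc2a2 was at 0.779, 0.777 and 0.866 CPM in vehicle and 0.453, 0.558 and 0.526 CPM in treated fat, from 8 to 15 counts a library. The groups did not overlap, as for 10.4% of all genes tested in this direction, and the difference did not pass the test (-0.65, SE 0.45, adjusted p = 0.587, edgeR).

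Fbp1 and Pklr were sparse in fat and varied widely within both groups. Fbp1 had 0.18, 9.10 and 2.83 CPM in vehicle and 1.25, 0.511 and 3.63 CPM in treated fat, and Pklr had 0, 6.38 and 3.12 against 0.0566, 0 and 3.52 CPM. Both were highest in vehicle libraries 2 and 3 and treated library 3, and neither passed the test (log2 fold changes of -1.17, SE 1.20, and -1.41, SE 1.87). Epcam, an epithelial marker, had 0.540, 20.5 and 8.37 CPM in vehicle and 1.36, 0.372 and 15.1 CPM in treated fat, high in the same 3 libraries. The 4 cholangiocyte markers that include it summed to 5.70, 49.2 and 15.9 CPM in vehicle and 58.1, 2.18 and 32.3 CPM in treated fat, where treated library 1 is high too. Markers of epididymis and skin epithelium did not follow Epcam. They summed to 14.6, 1.61 and 95.9 CPM in vehicle and 28.8, 12.7 and 16.0 CPM in treated fat, lowest in vehicle library 2. Hnf4a had 0.120, 11.9 and 4.39 CPM in vehicle and 0.0566, 0 and 5.31 CPM in treated fat. Alb, the hepatocyte marker, was at most 4.59 CPM in fat, and the part of epithelial markers in both results was not tested.

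Of the other genes of glucose metabolism, 102 were tested in fat and 0 were called. At an unadjusted p under 0.05 there were 28, against 13.4% of all genes, and DESeq2 called 1 higher and 9 lower, against 4.39% of all genes. The glycolysis list had 16 of 21 genes with a negative sign (median -0.53, all genes 0.01), 10 of them lower in all 3 treated libraries than in any vehicle library, as were 10.4% of all genes tested, and 2 genes of the list were higher without overlap. Tpi1, triose phosphate isomerase, had 458 ± 67.9 CPM in vehicle and 267 ± 31.2 in treated fat (log2 fold change -0.78, adjusted p = 0.179, edgeR), and Pfkfb4, a relative of Pfkfb3, 47.8 ± 13.5 and 17.5 ± 4.37 CPM (-1.45, adjusted p = 0.156, edgeR). The summed level of macrophage markers also lay apart in fat, at 4138 to 9200 CPM in vehicle and 2793 to 3116 CPM in treated libraries. Lyz2 made up most of this sum and was itself not called (adjusted p = 0.317, edgeR). Of 6 markers tested, 5 were lower without overlap, as were 10.4% of all genes, and edgeR called 0. DESeq2 called 3 lower, where 4.39% of all genes were called. The part of macrophage markers in the values above was not tested. Gys2, the glycogen synthase of liver, had 12.5, 10.04 and 7.62 CPM in vehicle and 1.36, 0.418 and 1.16 CPM in treated fat (log2 fold change -3.36, SE 0.48, adjusted p = 0.0954, edgeR), the smallest adjusted p of the lists in fat. Of the other genes that had the 2 smallest p of their list, none passed edgeR's test. By DESeq2 the adjusted p was 3.1e-09 for Gys2, 4.0e-04 for Pfkfb4 and 0.0027 for Tpi1. It was 6.7e-04 for Phka2, 0.0148 for Got1 and 0.0207 for Slc2a9, and the other genes given next did not pass by DESeq2 either. On the log2 scale the transaminase gene Got1 was at 1.04, Slc25a10 at -1.12, Pdhx at 0.27, the kinase gene Pdk1 at -0.57, the transporter genes Slc2a9 at -0.88 and Slc2a13 at -0.79, Phka2 at -1.10, Mlx at 0.43 and Cebpb at 0.80, with adjusted p from 0.156 (Phka2) to 0.429 (Pdhx) by edgeR. Medians of the other lists were -0.24 for gluconeogenesis, 0.04 for pyruvate dehydrogenase, -0.60 for transporters, -0.16 for glycogen and 0.28 for regulators.

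**Figure D5:**
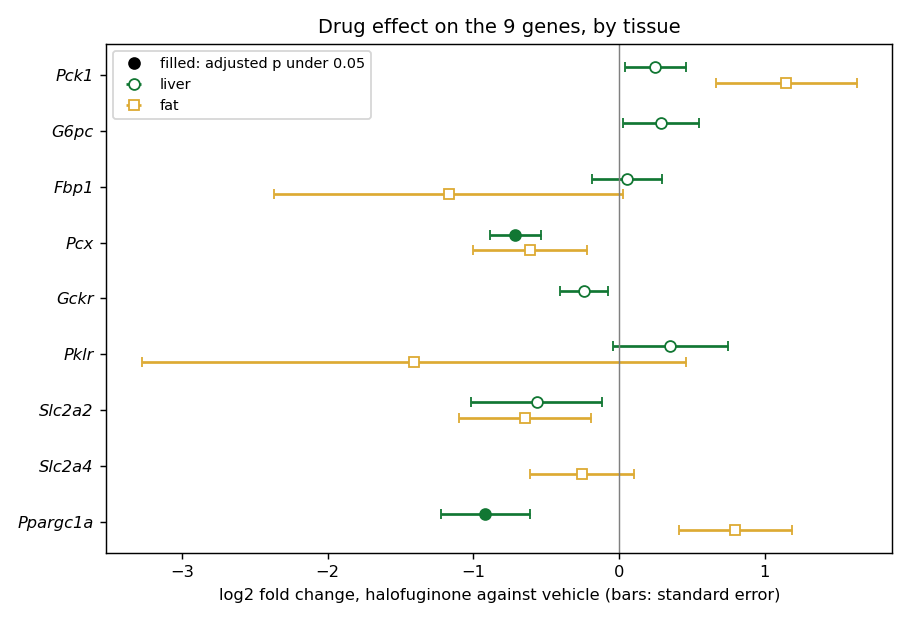
Log2 fold changes of halofuginone against vehicle for the 9 genes, liver as green circles and fat as yellow squares, with bars of 1 standard error, filled where the adjusted p was under 0.05; genes too sparse to be tested in a tissue have no symbol there. Ppargc1a lies at -0.92 in liver and 0.80 in fat, while Pcx lies at -0.71 and -0.61.

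The difference of the drug effect between the tissues, fat minus liver, was tested in 1 fit of all 16 libraries. It takes them as independent, since the labels do not say whether liver and fat of a number came from 1 animal. By this test 0 of 9 members and 0.949% of all 14853 genes were called (0.532% lower and 0.417% higher in fat than in liver). At an unadjusted p under 0.05 there was 1 member, Ppargc1a, against 15.7% of all genes. DESeq2, which called more genes in all than edgeR, called 1 member, also Ppargc1a. Its difference was 1.69 on the log2 scale (SE 0.50, adjusted p = 0.115, edgeR; adjusted p = 0.0422 by DESeq2) and 2.08 (SE 0.38, adjusted p = 0.00515, edgeR) without treated liver library 1. Over its 22 alternatives the difference ranged from 1.498 to 2.08 and the adjusted p from 0.00515 to 0.248. Fits with 1 library left out called 34 to 1053 genes in all. For Pcx the difference was 0.08 (SE 0.41) and for Pck1 0.87 (SE 0.49), with adjusted p of 0.975 and 0.420 by edgeR. Of 107 other genes of the lists tested, 1 was called: Gys2, with a difference of -3.42 (SE 0.70, adjusted p = 0.0347, edgeR). Its liver libraries held 130.2 to 174 CPM in vehicle and 35.9 to 232 CPM in treated mice (log2 fold change 0.04, SE 0.39).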

How the data were processed

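RNA sequencing libraries of liver (5 vehicle, 5 halofuginone) and white adipose tissue (3 and 3) were grouped by their titles, and 0 columns were left unmapped. Per the labels' protocols, poly(A) RNA was enriched on oligo(dT) beads and prepared with a NEBNext Ultra kit. The submitters' processing notes name mm39, fastp 0.18.0, Bowtie2 2.2.8, HISAT2, StringTie 1.3.1 and RSEM, without their roles; strandedness is not given in the sources used here, so reads of overlapping or antisense genes cannot be told apart. Per the file headers, the authors deposited whole-number counts and FPKM per library. Since 1 to 31 genes of a library paired a zero count with a positive FPKM, the counts may have been estimated and rounded. Symbols came from a gene-name table, which held 22267 of 22322 identifiers.

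Counts were tested in each tissue alone under R 4.3.3 with the two-sided quasi-likelihood test of edgeR 4.0.16 (glmQLFit, glmQLFTest), after filterByExpr and TMM scaling, with Benjamini-Hochberg adjustment over all genes. A standard error is the size of the log2 fold change over the root of F. The code was tested on simulated data. DESeq2 1.42.0, other scalings and filters, limma 3.58.1 on log2(FPKM + 1) and log2(FPKM + 0.1) with a mean FPKM of at least 1, a replicate block, 1 fit of all groups and leaving out each library were alternatives; the lists were also counted under other scalings and without treated liver library 1, chosen after seeing the data. The floor of 3 counts is 0.0938 to 0.148 CPM in liver and 0.140 to 0.176 CPM in fat and covers counting error only. No 2 libraries of a group were alike within sampling noise (smallest chi-square per degree of freedom 31.2). The members and gene lists were chosen with earlier results of these data known, and support nothing by themselves. Named were all members and, of each list, up to 4 called genes by smallest adjusted p, or in fat up to 2 by smallest unadjusted p; further genes named were chosen after their values were seen, and some genes of the lists are not reported here by name. Aldoa has 2 identifiers, of which the lower was used.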

Additional observations from a re-analysis of the deposited data

Results flagged for a closer look

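In 9 of 74 groups of 5 liver libraries, 1 library stood apart from the other 4, its gap to the nearest being over 0.71 of the range; chance gives about 1 in 20, or 3.7 of 74. Halofuginone library 1 stood apart for Ppargc1a (5.71 CPM, next 2.82), Pdhx (29.4, next 21.1), Crtc1 (6.66, next 10.8) and Mlx (28.6, next 54.9), each time on the side of the vehicle libraries. Halofuginone library 4 stood apart for Slc2a4 (0.579 CPM), library 2 for Slc2a5 (5.26 CPM) and library 5 for Cebpb (59.7 CPM). Among vehicle libraries, library 4 stood apart for Tpi1 (418 CPM) and Slc2a1 (8.36 CPM).

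The drug effect on Gys2 differed between the tissues by edgeR's test of the difference itself, with a fat minus liver log2 fold change of -3.42. Gys2 was the 1 gene called of 107 list genes tested, where 0.949% of all genes were called. Single genes were followed under the alternatives for the members only, so this call was not. In fat, Gys2 was lower in 3 of 3 treated libraries than in any vehicle library.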

How the results depend on the processing

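Of 464 recomputed values for 24 member results, 429 kept their direction and side of the threshold, 13 lost a call, 3 gained one and 19 changed sign, none of those called; the cause was not tested. In liver the called members were 1 without the low-count filter and with limma on log2(FPKM + 1) or log2(FPKM + 0.1), 0 in 1 fit of all groups and 1 to 2 with a library left out, where all genes called ran from 1275 (without halofuginone library 3) to 5312 (without library 1) and list genes from 12 to 45. Genes called in fat were 655 by DESeq2, 1 without the filter, 13 by limma on log2(FPKM + 1), 334 in 1 fit of all groups and 0 to 1 with a library left out. For the difference between tissues they were 686 by DESeq2, 280 by limma on log2(FPKM + 1) and 34 to 1053 with a library left out; members called were 1 by DESeq2 and 0 to 1. With a library left out, signs changed for Fbp1 in liver (-0.22 to 0.20), Fbp1 (-2.17 to 0.25) and Slc2a4 (-0.54 to 0.095) in fat, and the differences of Fbp1 (-2.32 to 0.21), Pcx (-0.32 to 0.35), Gckr (-1.38 to 2.48), Slc2a2 (-0.37 to 0.13) and Slc2a4 (-0.59 to 1.52). By limma, the difference was 0.66 and 0.43 for Slc2a2 and 0.15 for Slc2a4.

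Within a tissue, same-numbered vehicle and treated libraries correlated at -0.19 to 0.12 in liver and -0.60 to 0.18 in fat. Of the vehicle libraries, 1 of 5 and 0 of 3 correlated best with their own number. Values were centred within groups of 5 or 3 libraries, so these correlations cannot exclude a pairing by number. Liver and fat of the same number were not compared. With a replicate block, 1901 genes, 1 member and 19 list genes were called in liver, 0 genes in fat and 20 in the difference, and signs changed for Fbp1 in liver (-0.019) and the difference of Slc2a2 (0.20). Depth limits Slc2a4 in liver and G6pc, Gckr and Slc2a2 in fat, which had at most 15 counts a library.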
